A study of Mus musculus with 6 samples.

Results

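Connexins are membrane proteins that join neighbouring cells. Of 22180 genes measured in sorted cells of the mouse embryo, 7 are described here, namely Gja1, Gja4, Gja5, Gjb2, Gjb5, Gjb6 and Gjc1. They were taken from the deposited values by symbol, from probe sets that list a single gene, with the highest mean over the 6 arrays deciding where a gene has several probe sets. Each of the 7 genes had 1 such probe set. The genes were chosen by symbol with their log2 differences between the GFP-positive and GFP-negative arrays known, so these differences are given as a description and without a test.

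The arrays measured cells of the dorsal body wall, taken from 129SV mouse embryos at E14.5. Every embryo was heterozygous for Ebf2(GFP), a green fluorescent protein (GFP) reporter of the transcription factor gene Ebf2. Dissociated cells were sorted for PDGFRα, a receptor of mesenchymal cells, and divided by the reporter into Ebf2(GFP)+:Pdgfra+ cells (GFP-positive, n = 3 arrays) and Ebf2(GFP)-:Pdgfra+ cells (GFP-negative, n = 3 arrays). Both groups thus carry the reporter allele and passed the same PDGFRα gate, and neither was treated. The labels do not say whether embryos were pooled or litters were separate, so the p-values reflect only how these samples vary, and that variation may be technical. All values are log2 expression values of a probe set, and differences are GFP-positive minus GFP-negative.

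A gap junction channel forms where a ring of connexin subunits in the membrane of a cell docks with a ring in the next cell. Ions, metabolites and second messengers pass through it. Subunits of different connexins can share a ring or dock only in certain combinations, so the set of connexins a cell makes shapes which cells it can couple to. In mesenchyme, skeleton and skin of the embryo, Gja1 (connexin 43) is the best known member. Gjb2 and Gjb6 (connexins 26 and 30 by their older names) are known from epidermis, inner ear, liver or brain and from the coverings of the brain.

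Gjb2 and Gjb6 were lower in GFP-positive cells, while Gja1 lay at the same level in both groups within the spread of the arrays. Among the 7 genes, 2 were in the set that limma's test called lower and 0 in the set called higher, whereas the test called 6.49% of all 22180 genes (2.65% higher, 3.84% lower) at an adjusted p under 0.05. The arrays of the groups did not overlap for 3 of the 7 genes, with 1 higher and 2 lower, which was so for 22% of all genes (12.3% higher, 9.78% lower). Since the genes were picked with these differences known, nothing is read from either count. The median log2 difference was 0.011 over the 7 genes (-0.044 to 0.029 with 1 array left out) and 0.016 over all genes. In bulk samples, fewer cells of a type and less RNA per cell cannot be told apart.

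**Figure D1:**
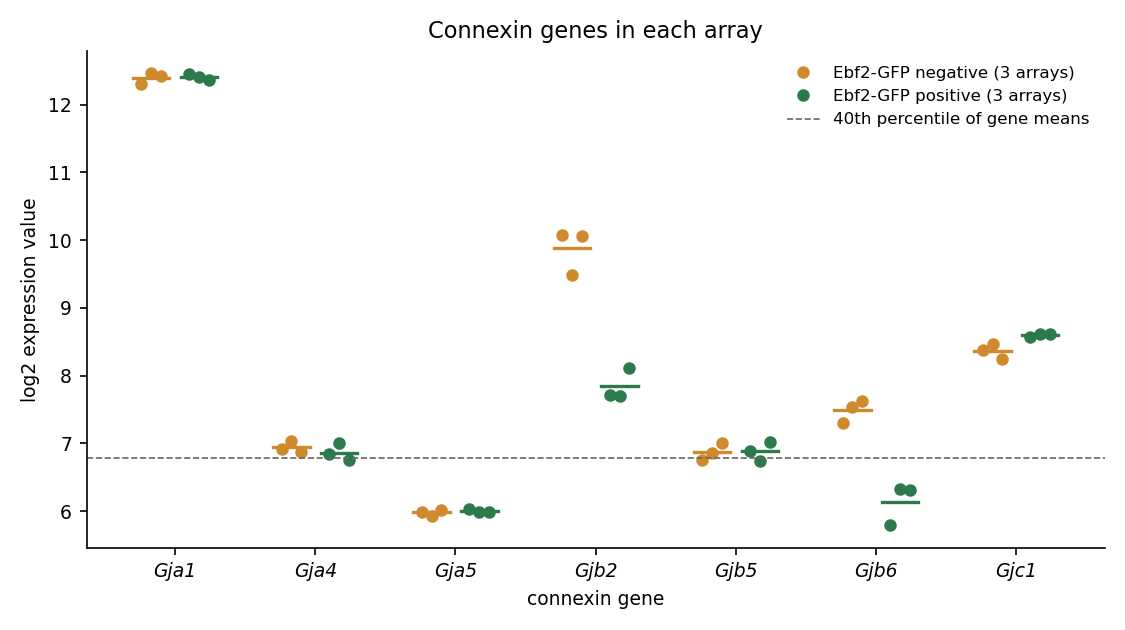
Log2 expression value (vertical axis) of the 7 connexin genes in each array, with a bar at the mean of each group (n = 3 arrays) and a dashed line at 6.78, the 40th percentile of gene means. Gjb2 and Gjb6 lie lower in every GFP-positive array than in any GFP-negative array. Heights of different genes come from different probe sets and are not comparable.

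Gjb2, a beta connexin of epithelia and of the cochlea, had the widest gap. Its log2 values were 10.08, 9.48 and 10.06 in GFP-negative replicates 1, 2 and 3 and 7.71, 7.70 and 8.11 in GFP-positive replicates 1, 2 and 3. All 3 GFP-positive arrays lay below all 3 GFP-negative arrays, and GFP-negative replicate 2 was the lowest of its group. The mean was 7.84 ± 0.229 (SD, n = 3) against 9.88 ± 0.339 (SD, n = 3), a 4.1-fold lower value (log2 difference -2.03 ± 0.19 SE). Within each replicate number the difference was -2.37, -1.78 and -1.95. Both group means lay above 6.78, the 40th percentile of gene means, which serves as a mark of dim genes because the values carry no detection calls.

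Gjb6, the connexin coded next to Gjb2, also separated the groups. Its values were 7.30, 7.53 and 7.62 in GFP-negative replicates 1, 2 and 3 and 5.79, 6.32 and 6.31 in GFP-positive replicates 1, 2 and 3. GFP-negative replicate 1 was the lowest of its group here, unlike for Gjb2, and GFP-positive replicate 1 was the lowest array of all. The mean was 6.14 ± 0.307 (SD, n = 3) against 7.49 ± 0.165 (SD, n = 3), or 2.54-fold lower (log2 difference -1.35 ± 0.16 SE). Since the GFP-positive mean lay below the mark of dim genes, the true fold could be larger than this value. The difference within replicate numbers was -1.52, -1.21 and -1.31.

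Gja1, the main connexin of fibroblasts, bone cells and heart muscle, was bright in all arrays, above 98.5% of genes by its mean. Its values were 12.30, 12.46 and 12.42 in GFP-negative replicates 1, 2 and 3 and 12.45, 12.41 and 12.36 in GFP-positive replicates 1, 2 and 3. The groups overlapped, with GFP-negative replicate 1 as the lowest array and GFP-negative replicate 2 as the highest. The log2 difference was 0.01 ± 0.06 SE, and it lay between -0.03 and 0.07 over all settings tried. At this brightness array signals can be compressed, so a small difference could be missed.

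Gjc1 (connexin 45), known from smooth muscle and the conduction system of the heart, was the only other of the 7 genes whose arrays did not overlap. Its values were 8.37, 8.47 and 8.24 in GFP-negative replicates 1, 2 and 3 and 8.57, 8.62 and 8.61 in GFP-positive replicates 1, 2 and 3. The shift was small, 1.18-fold (log2 difference 0.24 ± 0.07 SE), and the gene was not in the called set under any of the 13 settings tried besides the main one.

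The other members lay near the mark of dim genes. Gja4 (connexin 37), which is known from endothelium and ovary, had values of 6.92, 7.03 and 6.87 in GFP-negative and 6.84, 7.01 and 6.75 in GFP-positive replicates 1, 2 and 3. Gja5 (connexin 40), of arterial endothelium and atrial muscle, lay below the mark in every array, at 5.99, 5.93 and 6.01 in GFP-negative and 6.03, 5.99 and 5.99 in GFP-positive replicates 1, 2 and 3. A further probe set, with a mean of 10.24, lists Gja5 with other genes. It was not used, since its signal cannot be assigned to a single gene. Gjb5, an epidermal and placental connexin, had values of 6.76, 6.85 and 7.0 in GFP-negative and 6.88, 6.74 and 7.02 in GFP-positive replicates 1, 2 and 3. The groups overlapped for all 3 genes. Their log2 differences were -0.08 ± 0.08 SE for Gja4, 0.02 ± 0.05 SE for Gja5 and 0.01 ± 0.10 SE for Gjb5. At levels this close to the background of an array, a difference may not be detectable, and the values do not show whether the genes were expressed.

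The connexin genes that were lower in GFP-positive cells are neighbours. In the RefSeq gene order of assembly GRCm38.p6, Gja3, Gjb2, Gjb6 and Cryl1, a crystallin-related gene of sugar metabolism, follow each other on chromosome 14 with no other coding gene between them. Cryl1 was not picked as a connexin and was tested. Its values were 10.29, 10.43 and 10.47 in GFP-negative replicates 1, 2 and 3 and 9.46, 9.61 and 9.61 in GFP-positive replicates 1, 2 and 3. It fell in GFP-positive cells (log2 difference -0.84 ± 0.07 SE, limma adjusted p = 0.00171), and the call held under every setting, with adjusted p-values of up to 0.0124. On the other side of Gjb2, Gja3, a lens connexin, had a log2 difference of -0.10 ± 0.06 SE (limma adjusted p = 0.486) at a mean below the mark of dim genes. Farther out, the next 4 measured coding genes beyond Cryl1 and the next 5 beyond Gja3 did not pass limma's test. Named after their values were seen, Ift88, which follows Cryl1, had a log2 difference of 0.05 ± 0.06 SE (limma adjusted p = 0.759), and B020004C17Rik, next to Gja3, had -0.04 ± 0.09 SE (limma adjusted p = 0.867). The outermost gene on the side of Gja3, Parp4, passed with the replicate number as a block (0.42 ± 0.12 SE, limma adjusted p = 0.098 without and 0.0157 with the block).

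**Figure D2:**
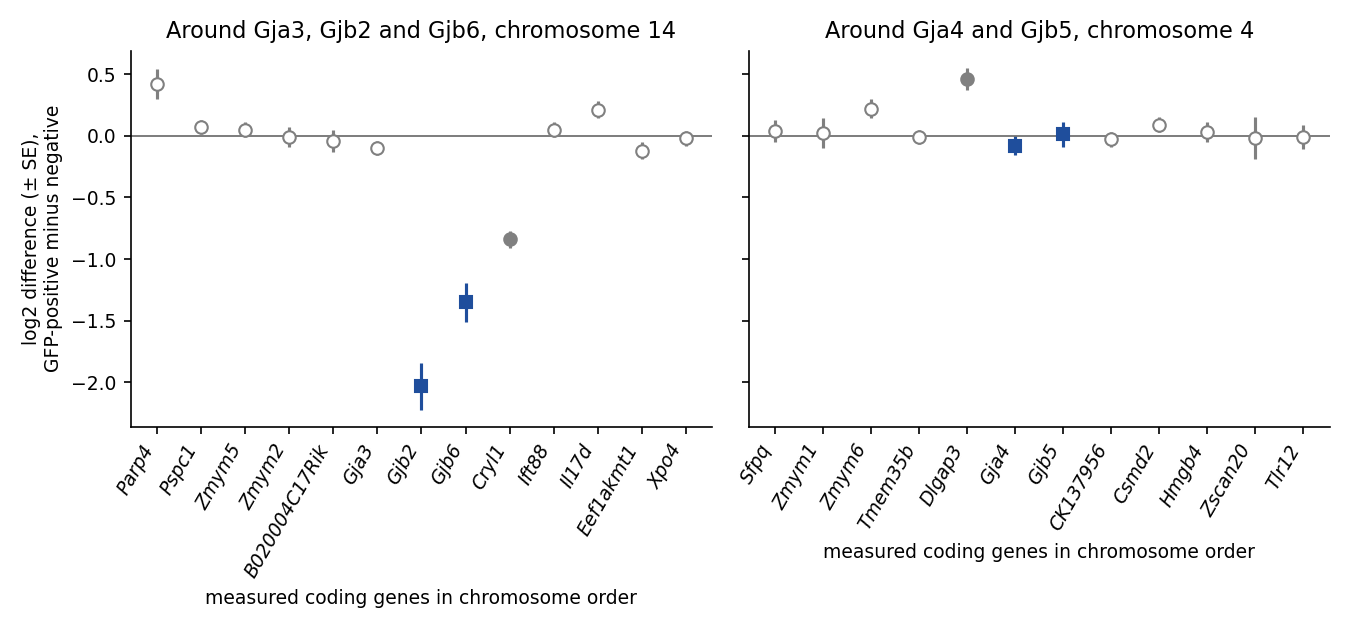
Log2 difference between the groups (vertical axis, ± moderated SE) for measured coding genes in chromosome order around the connexin clusters on chromosome 14 and chromosome 4. Blue squares are Gjb2, Gjb6, Gja4 and Gjb5, and grey circles are other genes, filled where limma's adjusted p was under 0.05. On chromosome 14 the low values run from Gjb2 (-2.03) over Gjb6 (-1.35) to Cryl1 (-0.84).

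The second connexin cluster gave no such run. Gja4 and Gjb5 lie on chromosome 4, with no other measured gene between them. The nearest measured gene beside Gja4, the synaptic scaffold gene Dlgap3, was higher in GFP-positive cells (0.46 ± 0.09 SE, limma adjusted p = 0.0307). That call ended without GFP-negative replicate 1 or 2 or any 1 GFP-positive replicate, where the adjusted p reached 0.122. The nearest measured gene beyond Gjb5, Gm12947, had a log2 difference of 0.11 ± 0.07 SE (limma adjusted p = 0.509). None of the nearest measured genes of the members elsewhere passed limma's test. Beside Gja1 these were Msl3l2 (0.22 ± 0.07 SE, adjusted p = 0.171) and 4930467K11Rik (-0.03 ± 0.13 SE, adjusted p = 0.942). Beside Gja5 they were 4930442L01Rik (-0.18 ± 0.14 SE, adjusted p = 0.593) and Acp6 (0.04 ± 0.12 SE, adjusted p = 0.924), and beside Gjc1 Adam11 (-0.04 ± 0.06 SE, adjusted p = 0.813) and Higd1b (-0.02 ± 0.10 SE, adjusted p = 0.942).

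The promoters of Gjb2 and Gjb6, which were both lower in GFP-positive cells, are shown with that of Gja1, whose groups overlapped. Each is the run of 250 bases before the RefSeq start of the gene (GRCm38.p6), read 5′ to 3′ on the gene's strand. Gjb2 lies at chr14:57104703-57104952 on the minus strand, Gjb6 at chr14:57133612-57133861 on the minus strand and Gja1 at chr10:56377050-56377299 on the plus strand. Capitals mark matches, on either strand, to the motifs searched.
Gjb2: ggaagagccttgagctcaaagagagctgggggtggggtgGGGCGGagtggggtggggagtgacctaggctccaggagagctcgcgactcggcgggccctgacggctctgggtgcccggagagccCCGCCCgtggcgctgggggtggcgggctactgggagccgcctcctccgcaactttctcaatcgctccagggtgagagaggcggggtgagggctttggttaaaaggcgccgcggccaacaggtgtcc
Gjb6: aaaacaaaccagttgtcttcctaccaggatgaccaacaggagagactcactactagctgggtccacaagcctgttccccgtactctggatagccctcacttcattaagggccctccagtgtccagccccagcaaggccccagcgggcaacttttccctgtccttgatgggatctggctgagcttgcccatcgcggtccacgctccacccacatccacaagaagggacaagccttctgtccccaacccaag
Gja1: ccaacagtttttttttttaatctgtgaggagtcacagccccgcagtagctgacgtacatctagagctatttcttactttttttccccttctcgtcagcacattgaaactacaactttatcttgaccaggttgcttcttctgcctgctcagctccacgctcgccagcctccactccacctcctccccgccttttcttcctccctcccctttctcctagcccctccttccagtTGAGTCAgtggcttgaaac
The motifs were the GC box GGGCGG, the TATA box TATAAA, the CCAAT box CCAAT, the AP-1 site TGANTCA and the Ebf site, TCCC and GGGA parted by NN, and no matches in these 3 promoters overlapped.

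The promoters of the neighbours Gjb2 and Gjb6 are unlike each other in these letters. The Gjb2 promoter held 2 GC boxes, which begin 211 and 126 bases before the start, and 18 CpG dinucleotides, with 69.2% G and C. The Gjb6 promoter held no match to any of the 5 motifs and 5 CpG dinucleotides, with 56.8% G and C. The Gja1 promoter held an AP-1 match 19 bases before the start and 6 CpG dinucleotides, which was also the median of all 32851 promoters in the table. Promoters were listed for 6 of the 7 genes. A GC box was found in those of Gjb2, Gja4 and Gja5 (32.7% of all promoters), a TATA box and a CCAAT box in that of Gjb5 (12.4% and 33.8%), and the AP-1 match in that of Gja1 (6.7%). None of the 6 held the Ebf site, which 0.8% of all promoters hold. A match is a description of these letters and not of binding.

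Beyond these, 9 other connexin genes were tested, of which 8 lay below the mark of dim genes. Their median log2 difference was -0.011 (-0.016 to 0.006 with 1 array left out), against 0.016 over all genes. Limma's test called 0 of the 9 higher and 0 lower. At an unadjusted p under 0.05 there was 1 gene, Gjc3 (connexin 29), known from Schwann cells and oligodendrocytes. Its values were 7.58, 7.23 and 6.63 in GFP-negative replicates 1, 2 and 3 and 6.21, 6.56 and 6.12 in GFP-positive replicates 1, 2 and 3. The arrays of the groups were separate, but narrowly, since GFP-negative replicate 3 lay close to GFP-positive replicate 2. The log2 difference was -0.85 ± 0.24 SE (limma adjusted p = 0.111), and it passed with the replicate number as a block (adjusted p = 0.0432) and without GFP-negative replicate 3 (0.027). Of 6 Schwann cell markers measured, 2 were called lower and 0 higher, beside 3.84% lower and 2.65% higher over all genes. The lower ones were Fabp7 (-1.64 ± 0.22 SE, limma adjusted p = 0.00802) and Sox10 (-0.62 ± 0.11 SE, 0.021). The call of Sox10 ended without any 1 GFP-positive replicate (up to 0.0924). The mean level of that list ran from 8.15 to 8.49 over the GFP-negative arrays and from 7.58 to 7.81 over the GFP-positive arrays, and its part in the Gjc3 values was not tested. The count of the list was 4 without GFP-negative replicate 3 and 1 without any 1 GFP-positive replicate.

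The other 8 of these connexins stayed within narrow bounds. The testis connexin gene Gja6 had the largest positive difference (0.15 ± 0.07 SE, limma adjusted p = 0.296), and its groups did not overlap, with a GFP-negative array at 4.69 next to a GFP-positive array at 4.70. Gjd3, the only one of the 9 above the mark of dim genes, differed by 0.08 ± 0.06 SE (limma adjusted p = 0.578). The neuronal connexin gene Gjd2 differed by -0.14 ± 0.17 SE and Gjd4 by 0.11 ± 0.08 SE (limma adjusted p = 0.751 and 0.57). Gja10 of the retina, Gjb1 of liver and Schwann cells, and Gje1 had differences of -0.01 ± 0.05 SE, 0.00 ± 0.05 SE and -0.03 ± 0.05 SE, with limma adjusted p-values of 0.941, 0.977 and 0.834.

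**Figure D3:**
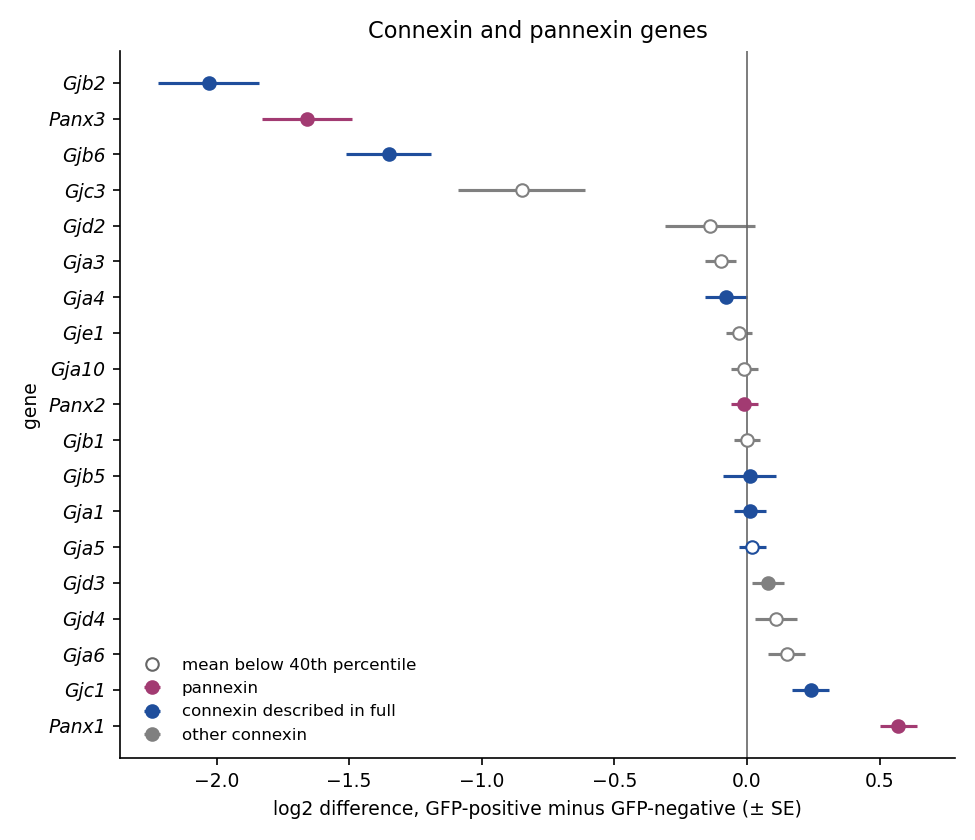
Log2 difference between GFP-positive and GFP-negative cells (horizontal axis, ± moderated SE, n = 3 arrays a group) for 16 connexin and 3 pannexin genes, ordered by size. Open circles have a mean below the 40th percentile of gene means. Gjb2, Panx3, Gjb6 and Gjc3 lie farthest to the left, and Panx1 lies farthest to the right at 0.57.

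Pannexins, which share the membrane topology of connexins but form channels that mostly open to the outside of the cell, moved in opposite directions. Panx3, a pannexin of cartilage and bone, had values of 9.02, 9.51 and 9.16 in GFP-negative and 7.26, 7.71 and 7.74 in GFP-positive replicates 1, 2 and 3. It fell 3.16-fold (log2 difference -1.66 ± 0.17 SE, limma adjusted p = 0.00329). Panx1, the broadly expressed pannexin of ATP release, had values of 9.53, 9.51 and 9.36 in GFP-negative and 10.02, 10.10 and 9.99 in GFP-positive replicates 1, 2 and 3. It rose 1.48-fold (0.57 ± 0.07 SE, limma adjusted p = 0.00525). For both genes the groups did not overlap, and both calls held under every setting (adjusted p up to 0.0185 for Panx3 and 0.0312 for Panx1). Panx2, known from the nervous system, differed by -0.01 ± 0.05 SE (limma adjusted p = 0.961). Beside Panx3, all 10 of 10 measured cartilage markers were lower, with a median log2 difference of -1.954 and a mean level of 10.73 to 10.91 over the GFP-negative and 8.94 to 9.27 over the GFP-positive arrays. The smallest p-value among them was that of the matrix gene Matn3 (-2.20 ± 0.08 SE, limma adjusted p = 0.000171). With 1 array left out, 8 or 9 of the cartilage markers were called lower. The part of these markers in the Panx3 values was not tested.

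Genes known to act on connexins mostly did not pass the test. Of 23 measured scaffold, sorting, kinase and turnover genes, 1 was higher and 1 lower, a share close to that of all genes, with a median log2 difference of 0.017 (-0.001 to 0.037 with 1 array left out). The higher gene was Cdh2, N-cadherin, whose adhesion precedes gap junction assembly in many cells. Its values were 10.94, 10.82 and 10.78 in GFP-negative and 11.78, 11.67 and 11.57 in GFP-positive replicates 1, 2 and 3 (1.78-fold, log2 difference 0.83 ± 0.08 SE, limma adjusted p = 0.00205). The lower gene was Cav1, caveolin-1, which binds Gja1 protein in membrane rafts. Its values were 8.83, 9.21 and 8.94 in GFP-negative and 7.87, 8.24 and 8.24 in GFP-positive replicates 1, 2 and 3 (1.84-fold, -0.88 ± 0.14 SE, limma adjusted p = 0.0141). Neither gene's groups overlapped. Prkca, a kinase that phosphorylates Gja1 protein, had a log2 difference of 0.26 ± 0.07 SE (limma adjusted p = 0.0777). With the replicate block it passed (0.0333), as it did after quantile normalization (0.0454). The scaffold gene Tjp1, ZO-1, which binds the tail of Gja1 protein, differed by -0.01 ± 0.06 SE (limma adjusted p = 0.938).

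Markers of other cell types were lower in the GFP-positive arrays where Gjb2 and Gjb6 were low. Of 12 measured genes listed as markers of the meninges, the coverings of the brain, 8 were lower and 0 higher, with a median log2 difference of -1.008. Whether cells of the meninges were among these cells of the dorsal body wall was not tested. The mean level of the list ran from 9.57 to 9.66 over the GFP-negative arrays and from 8.68 to 8.75 over the GFP-positive arrays. With 1 array left out the count called lower was 7 or 8, and after median centring it was 7. The smallest p-values were those of the GABA transporter gene Slc6a13 (-2.32 ± 0.13 SE, limma adjusted p = 0.00039), Zic2 (-1.23 ± 0.10 SE, 0.00122) and Foxc2 (-1.06 ± 0.08 SE, 0.00126). Of the 4 not called, Crabp2 was higher in every GFP-positive array than in any GFP-negative array (0.26 ± 0.10 SE, limma adjusted p = 0.236). Foxd1, Aldh1a2 and Dapl1 differed by 0.09 ± 0.09 SE, 0.02 ± 0.13 SE and -0.10 ± 0.06 SE (limma adjusted p = 0.691, 0.968 and 0.501). Macrophage markers were lower for 12 of 12 genes, with a median of -2.556 and a mean level of 9.66 to 10.69 over the GFP-negative and 7.18 to 8.32 over the GFP-positive arrays. That count was 5 without GFP-negative replicate 1, 7 without GFP-negative replicate 3 and 4 without GFP-positive replicate 2. Cartilage markers were lower for 10 of 10 genes, with a median of -1.954, and that count was 8 or 9 with 1 array left out. GFP-negative replicate 2 was the lowest of its group for Gjb2, the macrophage mean and, narrowly, the meninges mean (9.57 against 9.65 and 9.66). It shared the lowest cartilage mean with GFP-negative replicate 3, whereas Gjb6 was lowest in GFP-negative replicate 1. The endothelial, keratinocyte and Schwann cell means were instead highest in GFP-negative replicate 2. Nothing is read from an order over 3 arrays. All cells had passed the gate on PDGFRα, which macrophages are not known to carry. The macrophage mean was still 9.66 to 10.69 over the GFP-negative arrays, and why was not tested. The part of these cell types in the values of Gjb2 and Gjb6 was not tested.

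Keratinocyte markers, which belong to the cells best known for Gjb2, Gjb5 and Gjb6 in skin, lay close to the mark of dim genes, with 4 of 13 measured genes below it. Of the 13, 1 was lower and 0 higher, with a median of -0.089 (-0.180 to -0.032 with 1 array left out) and a mean level of 7.08 to 7.24 over the GFP-negative and 7.0 to 7.09 over the GFP-positive arrays. The lower one was Cdh1, E-cadherin (-1.09 ± 0.09 SE, limma adjusted p = 0.00161). Krt18, a keratin of simple epithelia, passed as higher with the replicate block (limma adjusted p = 0.257 without and 0.0413 with it). Epcam passed as higher without GFP-positive replicate 3 (0.0134), and Perp as lower without GFP-negative replicate 3 (0.00746). The epidermal regulator gene Trp63 lay at 6.49, 6.49 and 6.59 in GFP-negative and at 6.49 in all 3 GFP-positive arrays, below the mark of dim genes.

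Endothelial markers, which bear on Gja4 and Gja5, gave 1 higher and 2 lower of 16 measured. With the replicate block they gave 1 and 4, with Pecam1 (limma adjusted p = 0.0407) and Sox18 (0.0061) as the added lower genes. The median was -0.186, or -0.023 without GFP-negative replicate 2 and -0.371 without GFP-negative replicate 1. Their mean level ran from 8.07 to 8.60 over the GFP-negative and from 7.96 to 8.22 over the GFP-positive arrays. The genes called were Erg (-1.29 ± 0.11 SE, limma adjusted p = 0.00169), Cdh5 (-1.0 ± 0.16 SE, 0.016) and Emcn (0.94 ± 0.16 SE, 0.0214). The call of Cdh5 ended without GFP-negative or GFP-positive replicate 2 (up to 0.066), and that of Emcn without GFP-negative replicate 3 or any 1 GFP-positive replicate (up to 0.0943). Mural markers, which bear on Gjc1, gave 1 higher (Notch3, 0.50 ± 0.10 SE, limma adjusted p = 0.0293) and 3 lower of 10 measured, led by Rgs5 (-0.65 ± 0.07 SE, 0.00449) and Acta2 (-0.63 ± 0.07 SE, 0.0045). The median was -0.202, or -0.119 without GFP-negative replicate 3. With the replicate block they gave 2 higher and 2 lower, since Abcc9 passed (limma adjusted p = 0.0432) and Tagln, the other lower gene, did not (0.0441 without and 0.0524 with the block). The call of Tagln also ended after median centring and without any 1 array other than GFP-negative replicate 1 (up to 0.154). The call of Notch3 ended without GFP-negative replicate 2 or 3 or any 1 GFP-positive replicate (up to 0.105).

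**Figure D4:**
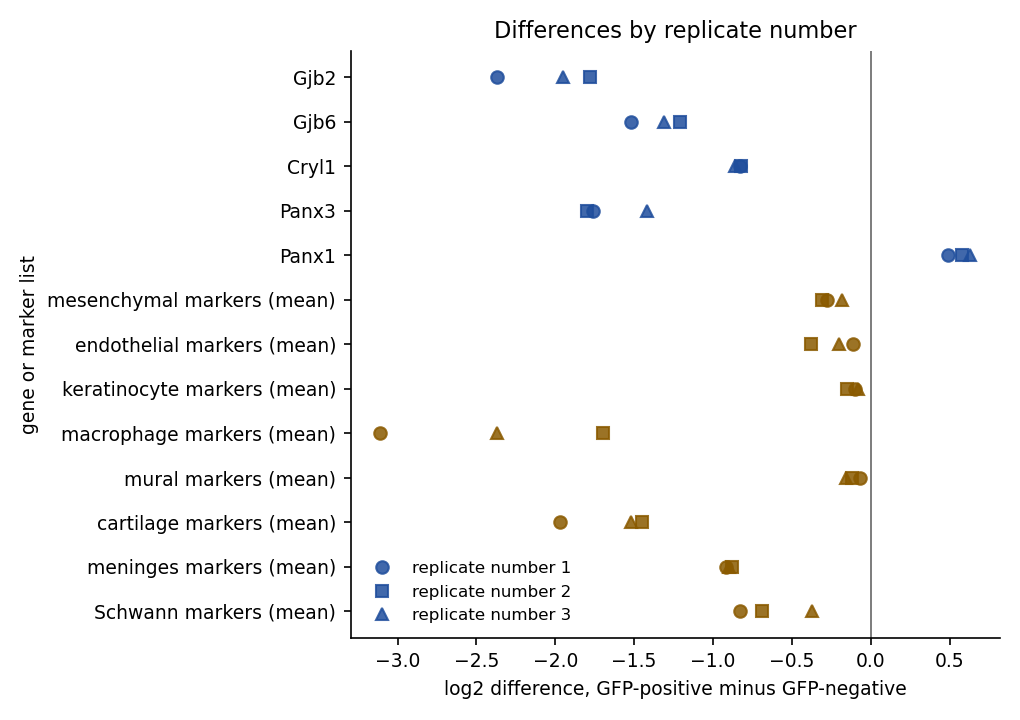
Log2 difference between the GFP-positive and the GFP-negative array of the same replicate number (horizontal axis), for 5 genes and for the mean of each marker list. Gjb2, Gjb6 and Cryl1 are below 0 for all 3 numbers, as are the means of all 8 marker lists, of which the keratinocyte and mural lists lie between -0.16 and -0.07.

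As a check of the sort, the log2 level of Ebf2 was 12.00 in GFP-positive and 8.65 in GFP-negative cells (limma adjusted p = 0.000916). Of 8 mesenchymal markers, 0 were higher and 2 lower (Twist2 with -1.67 ± 0.16 SE, limma adjusted p = 0.0024, and Lum with -0.34 ± 0.07 SE, 0.0295), and all 8 were above the mark of dim genes in both groups. The call of Lum ended without any 1 array other than GFP-negative replicate 1 (up to 0.103). Array medians lay between 6.657 and 6.712, and precision is limited by how many arrays there are.

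The genes whose values followed each connexin most closely over the 6 arrays were found by Pearson's r among genes above the mark of dim genes. The points share the division into 2 groups, so for a gene that separates the groups r mostly restates that division. For Gjb2 these were Slc9a7 (r = 0.9956, Spearman's rho = 0.886) and Ust (r = 0.9954, rho = 0.886), and 358 of 13307 genes had an r of at least 0.95. For Gjb6 they were Cgrrf1 (r = 0.9972, rho = 0.986) and Cxcl16 (r = 0.9947, rho = 0.943), among 264 such genes. The log2 differences of the genes most like Gjb2 were small beside its own, at -0.12 for Slc9a7 and -0.41 for Ust, since r does not measure size. For Gja1, whose groups overlapped, 5 genes reached an r of 0.95, led by Nrg4 (r = 0.9734, rho = 0.886) and Pabpc4l (r = 0.9579, rho = 1.000). The closest were Cfap300 and Abhd2 for Gjc1 (r = 0.9961 and 0.9939), Egr3 and Ifna4 for Gja4 (0.9936 and 0.9861), Naprt and Pon2 for Gja5 (0.9944 and 0.9835), and Akr1c14 and Fdps for Gjb5 (0.994 and 0.9884). For every member, the genes named have the highest r among all those compared over 6 arrays. Such picking alone yields high values of r. Nothing is read from these matches, and Gja4, Gja5 and Gjb5 lay near or below the mark of dim genes.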

How the data were processed

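RNA of sorted cells was measured on 6 Affymetrix arrays. The authors deposited a log2 value for each probe set on each array. RMA and limma are named in the submitters' processing notes, with versions and filters not given in the sources used here. The log2 scale was read from the values (3.41 to 14.32). Of 41345 probe sets, 23521 list 1 gene, 1814 several and 16010 none in the platform table, and only the first kind was used. Symbols were updated by gene identifier through RefSeq genes of GRCm38.p6, which also gave gene order and promoters. For 1082 genes with several probe sets the brightest was kept, which left 22180 genes. The groups were compared in R 4.3.3 with limma 3.58.1 (lmFit, then eBayes), and adjusted p-values are Benjamini-Hochberg over all genes, with a threshold of 0.05. The fit was also run on simulated arrays drawn independently of each other, so that run does not bear on arrays that share a replicate number.

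The labels number replicates alike in both groups. Deviations from the group means correlated at 0.314 to 0.519 for the same number and at -0.384 to -0.024 for different numbers. A gene's deviations cancel out within a group, so positive values for the same number force negative ones among the rest. From the values for the same number, the numbers were taken to pair the arrays. This pairing is inferred from the data, and the main fit does not use it. The SE and adjusted p-values given are from that unpaired fit unless another setting is named. Results with the block stand beside the calls they change.

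The members and lists were chosen with earlier results of these data known. Named were the 7 members, all other connexins tested and the pannexins, called partners, up to 3 called genes per marker list for the lists described in full, the nearest measured neighbours and the 2 genes most alike. Tjp1, Prkca, Trp63, Krt18, Epcam, Perp, Pecam1, Sox18, Abcc9, Tagln, Crabp2, Foxd1, Aldh1a2, Dapl1, Ift88, B020004C17Rik and Parp4 were chosen after their values were seen. Some connexin genes are not reported here. Other settings tried were leaving out dim genes, median centring, quantile normalization, the replicate block, averaging probe sets, eBayes with trend and robust, array weights and leaving out each array. The plots were drawn with matplotlib 3.10.9.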

Additional observations from a re-analysis of the deposited data

How the results depend on the processing

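The log2 differences of Gjb2 (-2.23 to -1.93) and Gjb6 (-1.44 to -1.17) were negative under all 13 settings. Those of Gja1 and Gjb5 lay between -0.06 and 0.08 and changed sign under 2 and 3 settings. Median centring moved the median of all genes from 0.016 to 0.072 and that of Gja5 to 0.08, and the higher share of the calls from 40.9% to 53.7% (868 higher and 749 lower). With the replicate block 2228 genes were called in place of 1439, and 1 of the other connexins (Gjc3) in place of 0. Over the arrays left out, the count ran from 629 to 1067 for all genes, from 0 to 1 for the other connexins and from 25 to 35 for the marker genes, against 42 with all arrays. The block did not change the counts of members or pannexins called (2 each). Fewer arrays give less power, and no other cause was tested. Values near the background limit what can be said of Gja4, Gja5, Gjb5 and 8 of the 9 other connexins.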
